A study of Homo sapiens with 6 samples.

Results

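The ABC (ATP-binding cassette) transporters were followed on 6 two-colour arrays of 2 established human ovarian cancer cell lines, SKOV3 and A2780s. Members were the genes whose name in the scanner files was ABCA, ABCB, ABCC, ABCD, ABCE, ABCF or ABCG followed only by digits. This gave 46 of the 29123 gene names on the array, with 71 of its 41000 probes, and this rule uses gene names, not measured values. Of these genes, 29 had 1 probe and 17 had more, and the brightest probe of a gene over both dyes and all arrays stood for it.

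ABC proteins bind and hydrolyse ATP in a shared nucleotide-binding domain, and most of them use it to move a substrate across a membrane. Members of the ABCB, ABCC and ABCG subfamilies pump drugs, conjugates and bile acids out of cells, and several of them are known for drug resistance in ovarian and other cancers. Most studied ABCA and ABCG members move cholesterol and phospholipids, ABCD members serve peroxisomes and lysosomes, and several ABCB members that work as dimers, ABCB6 and ABCB10 among them, sit in mitochondria and other organelles. ABCE and ABCF proteins have no membrane-spanning part and act on ribosomes and translation.

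In SKOV3 cells, sh-S1 and sh-S2, stable clones with an shRNA to Hic-5 in a lentiviral vector, were each hybridized with the Ctrl clone, which carried a scramble sequence in that vector. In A2780s cells, the pCMV-Hic-5 clone, stably transfected with Hic-5 under the CMV promoter, was hybridized with a Ctrl clone that carried the empty vector. Each RNA came from 1 stable clone selected with puromycin (SKOV3) or neomycin (A2780s), and each pair of RNAs was put on 2 arrays with the dyes exchanged, which count as 1 replicate. Both SKOV3 clones were set against the same Ctrl RNA. All SKOV3 arrays were on 1 slide and both A2780s arrays on another, so line, slide and scan cannot be told apart. TGFB1I1, which encodes Hic-5, gave log2 ratios of -0.16 and 0.12 in the RNA labelled sh-S1 and of -0.12 and 0.28 in that labelled sh-S2, with a mean of 0.03 (adjusted p = 0.855 from limma), and of 4.05 and 2.60 in pCMV-Hic-5. No lower level of the targeted gene was measured in the shRNA clones, so directions given for them rest on their labels. TGFB1I1 was also called at least 2-fold higher in A2780s Ctrl than in SKOV3 Ctrl, beside 8.22% of all probes called in that direction. Its levels in the Ctrl RNAs did not overlap, and the difference was not tested. The methods state that stable clones were picked after checks of Hic-5 by PCR and Western blot, which these arrays do not hold. Of the 11 ovarian carcinoma markers on the array, 9 passed the signal filter in SKOV3. Among them PAX8, KRT7, KRT8, KRT18, ERBB2 and CDH2 were called lower in the shRNA clones. Their means lay between -3.58 and -1.46, beside 4.16% of all probes called lower. All 6 were also over 2-fold lower in A2780s Ctrl than in SKOV3 Ctrl (KRT7 was well above background there on 1 of 2 arrays). Over all probes, 9.26% were called higher in SKOV3 Ctrl, and these differences share the SKOV3 Ctrl RNA with the ratios. Of the 9, 0 were called higher, and 1 was higher at limma's adjusted p without the fold threshold, beside 15.7% of all probes. CDH1 passed the filter in neither line, and KRT18 was the marker called in A2780s, with ratios of 0.54 and 0.65. The 6 markers called lower moved with the labels sh-S1 and sh-S2, and their part in the results on ABC genes was not tested.

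The median signal over local background on the SKOV3 arrays was 373 to 530.5 in Cy3 and 9.52 to 25.5 in Cy5, against 325 to 369 in Cy3 and 441 to 568 in Cy5 on the A2780s arrays. Of the SKOV3 probe spots, 88.8 to 94.5% were well above background by their Cy3 signal and 43.7 to 63.6% by Cy5. All ratios are given as log2 of modified clone over Ctrl, after an offset of 50 was added to every background-corrected signal, which makes the ratios of dim probes smaller.

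The array measures each gene with a probe of 60 bases. The 5 probes shown here belong to genes on which the results or their limits turn, and each has a genome interval in hg19 longer than the probe, so that it crosses an exon junction. Capitals mark the codon of the H-loop histidine in ABCB6 and ABCF2 and the start of the ABC signature motif in ABCB1, all parts of the nucleotide-binding domain.
ABCB6, dimmer probe A_24_P197196, chr2:220075003-220075144, minus strand: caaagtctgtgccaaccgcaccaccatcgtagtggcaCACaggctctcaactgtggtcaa
ABCF2, brightest probe A_23_P215175, chr7:150911266-150912012, minus strand: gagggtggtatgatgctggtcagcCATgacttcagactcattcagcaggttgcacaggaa
ABCB1, only probe A_23_P82523, chr7:87135313-87138603, minus strand: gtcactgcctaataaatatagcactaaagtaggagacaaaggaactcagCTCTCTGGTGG
ABCA7, only probe A_23_P39481, chr19:1064196-1064932, plus strand: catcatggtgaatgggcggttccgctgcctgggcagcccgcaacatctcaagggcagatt
ABCC5, dimmer probe A_23_P212665, chr3:183645185-183646547, minus strand: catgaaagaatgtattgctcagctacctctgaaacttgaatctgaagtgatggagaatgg

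Signal decided how many members could be compared. In SKOV3, 26 of the 46 genes passed the filter (a signal flagged as well above background on every array for the Ctrl, or on each array of a clone), 23 of them through the Ctrl and 3 (ABCA7, ABCB9 and ABCG5) through a clone alone. In A2780s 34 genes passed, all through the Ctrl. There were 25 genes that passed in both lines, 9 in A2780s alone, and 1, ABCC3, in SKOV3 alone. The 11 genes that passed in neither line were ABCA4, ABCA9, ABCA12, ABCA13, ABCB1, ABCB4, ABCB5, ABCC9, ABCC12, ABCD2 and ABCG8. For ABCC12 and ABCG8, no RNA was well above background on any array. ABCB1, which encodes the multidrug pump P-glycoprotein, was spotted 10 times on each array and was well above background in SKOV3 Ctrl on 2 of 4 arrays and in A2780s Ctrl on 1 of 2. Its log2 ratios lay between -0.08 and -0.01 in SKOV3 and were 0.02 and 0.01 in A2780s, and none of them was tested.

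In the SKOV3 clones, labelled sh-S1 and sh-S2, 2 of the 26 members tested passed an adjusted p of 0.05 and 2-fold, or 7.69%, beside 7.15% of all 24770 probes tested. ABCC3, an efflux pump for bile acids and glucuronide conjugates, was lower, and ABCB6, known for porphyrin transport, was higher. Over all probes tested, 2.99% were called higher and 4.16% lower. The median log2 ratio of the 26 members was 0.04, against 0.00 over all probes tested. The test compares 2 clones with 1 Ctrl RNA and leaves out the spread of the Ctrl, and in these bulk RNAs fewer cells with a transcript and less transcript per cell cannot be told apart. With Feature Extraction's own processed signals, 4 members (ABCA5, ABCA7, ABCB6 and ABCC6) were called higher and 1 (ABCC3) lower, beside 7.93% and 9.45% of all probes under the same processing.

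ABCC3 was read by a single probe, A_23_P207507 (chr17:48768701-48768760 in hg19, plus strand). Its log2 ratios were -1.12 and -2.13 for sh-S1, with the clone in Cy5 and in Cy3, and -1.28 and -2.31 for sh-S2. All 4 values were below -1, and the arrays with the clone in Cy3 were lower than those with it in Cy5. The mean over the clones came to -1.71 ± 0.12 (SD, n = 2 clones), a 3.27-fold fall with an adjusted p of 4.67e-05 by limma. The probe was well above background in SKOV3 Ctrl on 4 of 4 arrays and in the clones on 3 of 4. With processed signals the mean was -3.17, and over the alternatives run it lay between -3.17 and -1.20.

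ABCB6 had log2 ratios of 1.46 and 1.25 for sh-S1 and of 1.55 and 1.25 for sh-S2, with the clone in Cy5 and in Cy3. These values stood close together and above those of every other member tested. The mean was 1.38 ± 0.03 (SD, n = 2 clones), a 2.60-fold rise with an adjusted p of 9.38e-05 by limma. The dimmer ABCB6 probe, across the exon junction shown above, gave 0.41 and 0.96 for sh-S1 and 0.47 and 1.37 for sh-S2. Its mean was 0.80 ± 0.17 (SD, n = 2 clones, adjusted p = 0.00151 by limma), the same direction at less than 2-fold. With processed signals the mean of the brightest probe was 1.97.

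**Figure D1:**
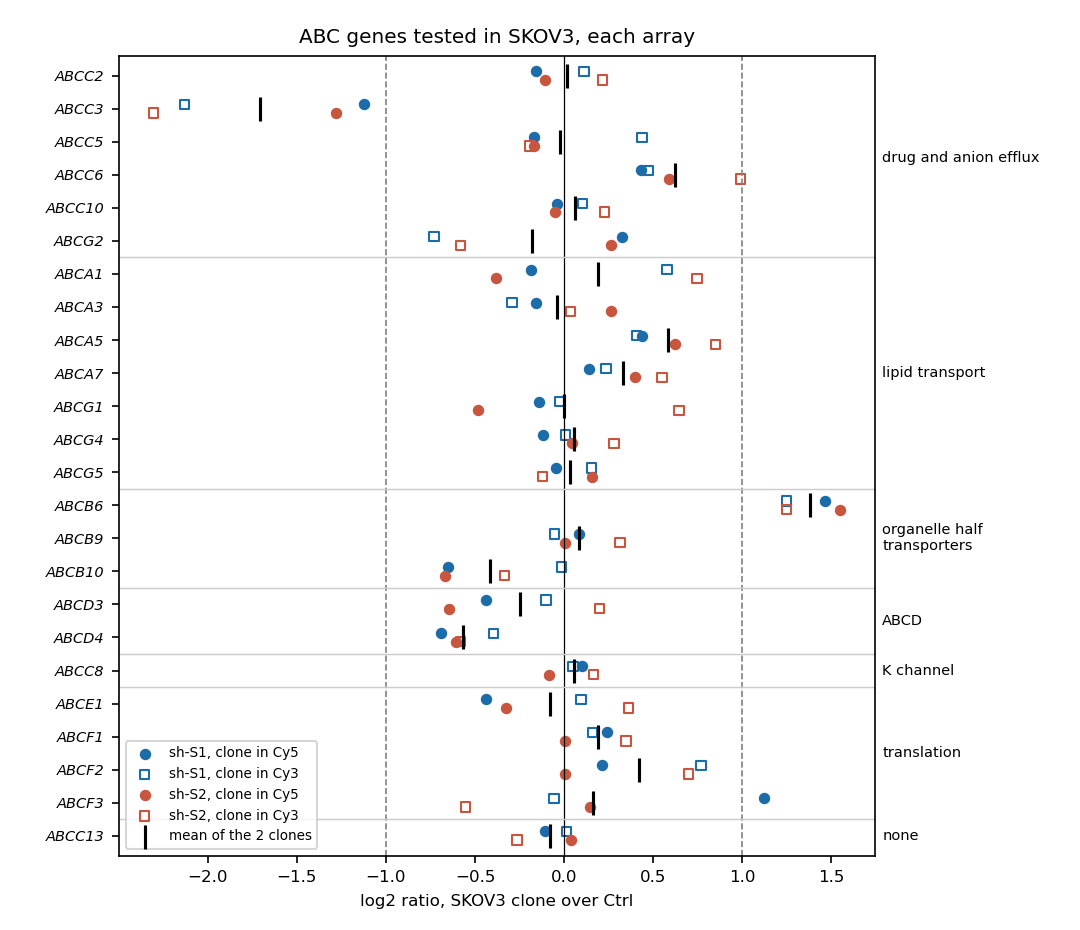
Log2 ratio of SKOV3 clone over Ctrl (x axis) for ABC genes tested, grouped by role (right). Each point is 1 array (blue sh-S1, red sh-S2), filled circles with the clone in Cy5 and open squares with it in Cy3, black ticks are the mean of the clones, and dashed lines mark 2-fold; ABCC3 (mean -1.71) and ABCB6 (mean 1.38) are the means outside them.

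The levels of ABCC3 in each RNA are given on the log2 scale after normalization within and between arrays. They were 9.41 to 10.37 in SKOV3 Ctrl, 7.28 and 9.25 in sh-S1 and 7.46 and 8.96 in sh-S2. In A2780s Ctrl they were 6.74 and 6.96, and in pCMV-Hic-5 6.98 and 7.25. The clones thus lay between the Ctrl RNAs, 1.38 above A2780s Ctrl on average. Their levels were 9.25 and 8.96 with the clone in Cy5 but 7.28 and 7.46 with it in Cy3. In A2780s Ctrl, ABCC3 was well above background on 1 of 2 arrays, so its level there is near background. For ABCB6 the levels were 8.97 to 10.18 in SKOV3 Ctrl, 10.63 and 10.97 in sh-S1 and 10.53 and 11.43 in sh-S2. Those of A2780s Ctrl were 11.07 and 11.86. The clones lay above every SKOV3 Ctrl value and overlapped A2780s Ctrl, with a mean difference of -0.58 from it, and SKOV3 Ctrl differed from it by -1.96. These differences share the SKOV3 Ctrl RNA with the ratios above and are given side by side with no test.

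**Figure D2:**
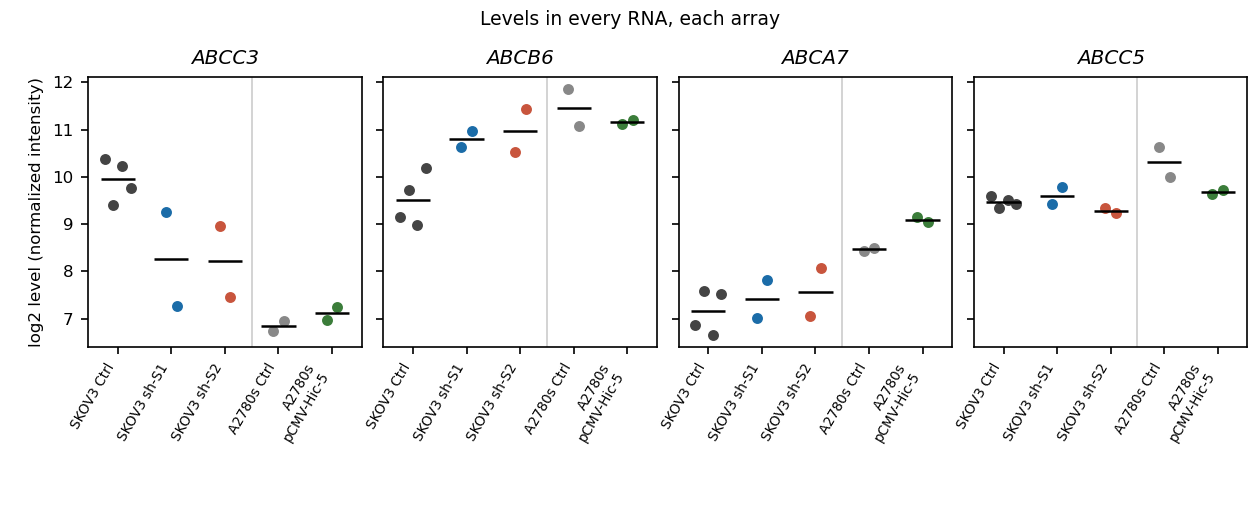
Log2 level (y axis) of ABCC3, ABCB6, ABCA7 and ABCC5 in the 5 RNAs, with 1 point per array and a bar at the mean; levels of different genes come from different probes and are not comparable. ABCC3 was highest in SKOV3 Ctrl (mean 9.95) and lowest in A2780s Ctrl (mean 6.85, well above background on 1 of 2 arrays). ABCB6 ran the other way (means 9.51 and 11.47).

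Without the 2-fold threshold, 4 members were higher and 3 lower at an adjusted p of 0.05 by limma, beside 15.7% of all probes higher and 16.3% lower. The additional genes higher were ABCC6, ABCA5 and ABCF2, and those lower were ABCB10 and ABCD4. ABCC6, whose loss causes pseudoxanthoma elasticum, was the member nearest to 2-fold among those not called, with ratios of 0.43 and 0.47 for sh-S1 and 0.59 and 0.99 for sh-S2 and a mean of 0.62 ± 0.24 (SD, n = 2 clones, adjusted p = 0.00663). ABCA5, a lysosomal lipid transporter, had a mean of 0.58 ± 0.22 (adjusted p = 0.00789) and was above 0 on 4 of 4 arrays. ABCF2, of the translation group, had a mean of 0.42 ± 0.10 (adjusted p = 0.0164). ABCD4, needed to release cobalamin from lysosomes, had a mean of -0.57 ± 0.04 (adjusted p = 0.00419), and ABCB10, a mitochondrial transporter of haem-forming cells, had one of -0.42 ± 0.12 (adjusted p = 0.0184). The ratio of ABCD4 was between -0.69 and -0.39 on every array, and that of ABCB10 between -0.67 and -0.01.

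In the group of drug and organic anion efflux, 6 of 14 genes were tested in SKOV3. ABCG2, the breast cancer resistance protein, had ratios of 0.33 and -0.73 for sh-S1 and of 0.26 and -0.58 for sh-S2. Its sign followed the dye in both clones, and the mean of -0.18 did not pass (adjusted p = 0.199 by limma). ABCC2, ABCC5 and ABCC10 had means of 0.02, -0.02 and 0.06, with adjusted p values of 0.93, 0.90 and 0.70. ABCC1, the multidrug resistance protein MRP1, did not pass the filter in SKOV3 and had ratios of -0.21, 0.06, -0.26 and 0.22.

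Of the 16 genes of cholesterol and phospholipid transport, 7 were tested in SKOV3, and ABCA5 alone passed the adjusted p. By that rule, without the fold threshold, 15.7% of all probes were higher and 16.3% lower. ABCA1, which loads cholesterol onto apolipoprotein A-I, had ratios of -0.19 and 0.58 for sh-S1 and of -0.38 and 0.75 for sh-S2, so its sign too followed the dye. Its mean was 0.19 (adjusted p = 0.183 by limma). ABCG1, which passes cholesterol to mature lipoprotein particles, had ratios of -0.14 and -0.02 for sh-S1 and of -0.49 and 0.64 for sh-S2 (adjusted p = 0.989 by limma). The lung surfactant lipid transporter ABCA3 and the sterol transporters ABCG4 and ABCG5 had means of -0.04, 0.05 and 0.04. ABCA7, a close relative of ABCA1 that moves phospholipids, was above 0 on 4 of 4 arrays with a mean of 0.33 ± 0.20 (SD, n = 2 clones, adjusted p = 0.0596). It entered the comparison through a clone alone, its Ctrl being well above background on 2 of 4 arrays, so its ratios are set against a Ctrl near background and are given as a description. With Feature Extraction's processed signals its mean was 2.09 (adjusted p = 0.000677), and with median centring in place of loess 0.89 (adjusted p = 0.00095).

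The translation group was measured in full, with 4 of 4 genes tested in both lines. ABCE1, which splits ribosomes after termination, had a mean of -0.08 in SKOV3 (adjusted p = 0.630 by limma) and of 0.04 in A2780s. ABCF1 and ABCF3 had means of 0.19 and 0.16 in SKOV3 (adjusted p = 0.181 and 0.543). Among the organelle transporters, ABCB9, a lysosomal peptide transporter, had a mean of 0.09 (adjusted p = 0.577). The peroxisomal fatty acid importer ABCD3 had a mean of -0.25 (adjusted p = 0.0906). ABCC8, the sulfonylurea receptor of the ATP-sensitive potassium channel, had a mean of 0.06 (adjusted p = 0.712).

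Between the SKOV3 clones, 0 of the 26 members differed by 2-fold in the same direction in both dye orientations, beside 0.408% of all probes. This comparison has no test, since each clone is 1 RNA, and the shared Ctrl cancels in it. The largest difference was that of ABCF3, whose ratio in sh-S2 minus that in sh-S1 was -0.98 with the clones in Cy5 and -0.50 with them in Cy3. The mean of -0.74 was short of 2-fold, and the highest difference among the members was 0.37.

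In A2780s, 2 of the 34 members with signal reached 1.5-fold on the mean of the arrays with the same direction on both, or 5.88%, beside 4.57% of all 30325 probes (3.26% higher and 1.32% lower). With 1 clone and 1 Ctrl there is no test of the condition. ABCA7 was higher in pCMV-Hic-5, with log2 ratios of 0.71 and 0.54 with the clone in Cy5 and in Cy3 and a mean of 0.62, or 1.54-fold. ABCC5, an efflux pump for cyclic nucleotides, was lower, with ratios of -0.997 and -0.284 and a mean of -0.64, or 1.56-fold. Neither gene reached 1.5-fold on both arrays, since the 1 array with the clone in Cy3 fell short in each case. ABCA7 was not called with normexp fitted on all spots (0.54), and ABCC5 not with the mean of its probes (-0.34). The dimmer ABCC5 probe, which passed the filter in A2780s, gave -0.15 and 0.08.

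The ABCA7 and ABCC5 means were the members just inside the threshold, and ABCA5, at -0.65 and -0.32 with a mean of -0.49, was the nearest outside it. The other probe of ABCA5 had ratios of -0.72 and -0.48 and a mean of -0.60, which is past 1.5-fold. The members not called ranged from -0.49 to 0.46, and the highest of them was ABCA10 with 0.18 and 0.74. Of the 34 members, 17 had the same sign on both arrays, a count for which no share of all probes was computed and from which nothing is read. The median of the members was 0.02, against -0.01 over all probes.

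**Figure D3:**
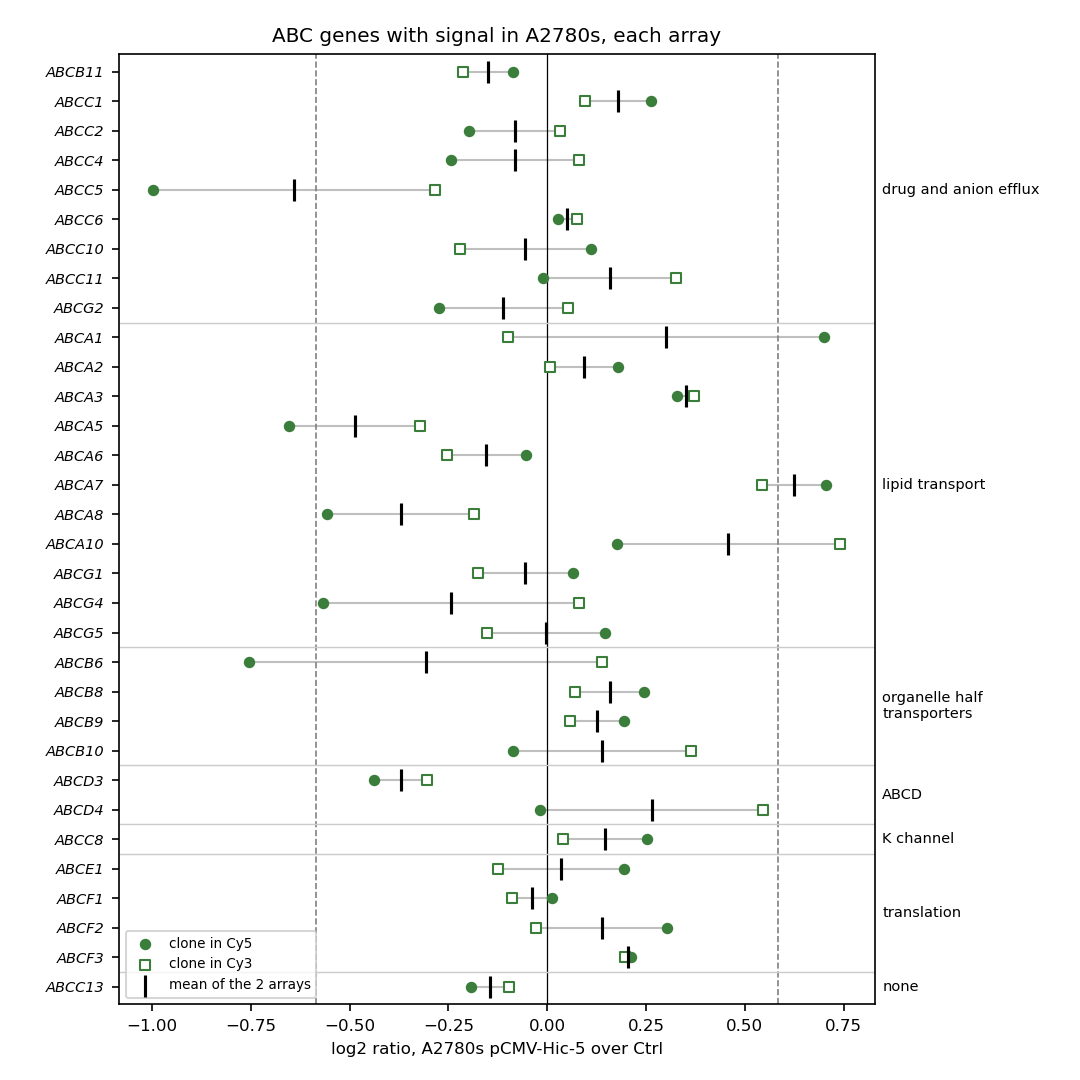
Log2 ratio of A2780s pCMV-Hic-5 over Ctrl (x axis) for ABC genes with signal, grouped by role (right), with filled circles for the array with the clone in Cy5, open squares for the clone in Cy3 and ticks for the mean. Dashed lines mark 1.5-fold, and ABCA7 (mean 0.62) and ABCC5 (mean -0.64) are the means beyond them.

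The efflux genes other than ABCC5 were not called in A2780s. ABCC1 had ratios of 0.26 and 0.10, ABCG2 of -0.27 and 0.05, ABCC2 of -0.20 and 0.03 and ABCC4 of -0.24 and 0.08. ABCC3 was well above background in 1 of 2 arrays in either A2780s RNA and had ratios of 0.23 and 0.29. ABCB6, called higher in the SKOV3 clones, gave -0.75 and 0.14 in A2780s, with opposite signs on the dye-swapped arrays. ABCA1 gave 0.70 and -0.10, and ABCG1 0.06 and -0.18.

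The Ctrl RNAs of the lines were compared on their log2 levels, for 35 members well above background in at least 1 line's Ctrl on all of its arrays. This comparison has no test, and line, slide and scan cannot be told apart in it. Of the 35, 8 (22.9%) differed by 2-fold with levels that did not overlap, beside 17.5% of all 30784 probes (9.26% higher in SKOV3 Ctrl and 8.22% lower). SKOV3 Ctrl was higher for 1 of them and A2780s Ctrl for 7. Levels taken after loess alone, each dye centred on its median, gave 5 and 10, beside 17.2% and 22.4% of all probes, and Feature Extraction's processed signals 3 and 12, beside 14.4% and 17.9%. The median difference of the members, SKOV3 minus A2780s, was -0.31, against -0.07 over all probes. Of the 35, 23 passed through SKOV3 Ctrl and 34 through A2780s Ctrl, so more members entered through A2780s Ctrl alone. Entry through 1 Ctrl alone favours a higher level there, so the counts by direction and this median are given as a description.

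ABCC3 was the gene higher in SKOV3 Ctrl, by 3.09 on the log2 scale or 8.53-fold, and it entered through SKOV3 Ctrl alone, since its A2780s Ctrl signal was well above background on 1 of 2 arrays. The size depended on the processing, with a log2 difference of 5.29 from processed signals and of 3.73 after loess alone. The next in that direction were ABCC13, a relative of the ABCC genes regarded as a pseudogene, at 0.95, ABCG2 at 0.89 and ABCF3 at 0.87. For ABCC13, the levels of 8.03 to 8.46 in SKOV3 Ctrl lay above the 7.14 and 7.41 of A2780s Ctrl, just short of 2-fold. With the mean of all its probes, ABCC13 differed by 0.27. ABCG2 had a lowest level of 9.002 and a highest of 9.59 in SKOV3 Ctrl against 8.25 and 8.41 in A2780s Ctrl. ABCF3 did not overlap between the lines either, but its difference was 0.51 with processed signals and 0.0074 with levels after loess alone.

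ABCA5 stood furthest in the other direction, with levels of 7.74 to 8.47 in SKOV3 Ctrl and of 9.83 and 10.35 in A2780s Ctrl, 3.95-fold apart. ABCB6 followed at 3.88-fold and ABCC6 at 3.03-fold. ABCA8 was 2.54-fold and ABCA7 2.47-fold higher in A2780s Ctrl. With levels taken after loess alone, ABCA8 differed by -0.52 on the log2 scale, short of 2-fold. ABCC4, a pump for cyclic nucleotides and prostaglandins, differed by 2.46-fold and ABCF2 by 2.06-fold, the smallest difference called. ABCA7, ABCA8 and ABCC4 entered through A2780s Ctrl alone, each being well above background in SKOV3 Ctrl on 2 of 4 arrays, so their folds are set against a level near background. Of the 11 cholesterol and phospholipid transporters compared, 3 were called higher in A2780s Ctrl and 0 in SKOV3 Ctrl, and of the 10 efflux genes 2 and 1, beside 8.22% and 9.26% of all probes. These counts include ABCA7, ABCA8 and ABCC4, which entered through A2780s Ctrl alone, and ABCC3, which entered through SKOV3 Ctrl alone. Each was called higher in the Ctrl that let it in, so the counts are given as a description.

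**Figure D4:**
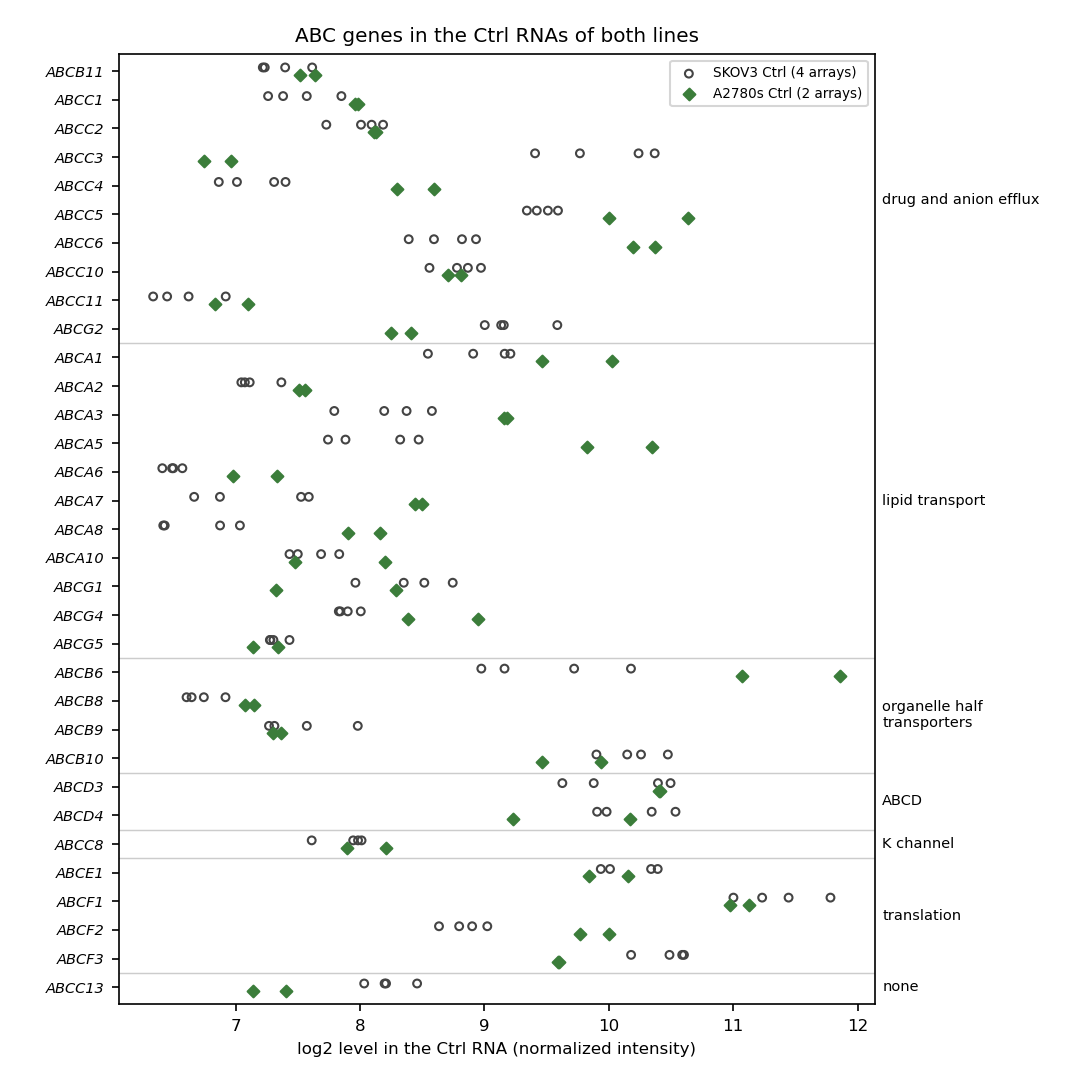
Log2 level in the Ctrl RNA (x axis) of ABC genes compared between lines, with open circles for the 4 arrays of SKOV3 Ctrl and diamonds for the 2 of A2780s Ctrl. The groups are furthest apart for ABCC3, where SKOV3 Ctrl was 8.53-fold higher and A2780s Ctrl was well above background on 1 of 2 arrays, and for ABCA5 and ABCB6, where A2780s Ctrl was 3.95-fold and 3.88-fold higher.

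ABCG1 levels in SKOV3 Ctrl were 7.96 to 8.74, and those in A2780s Ctrl were 7.32 and 8.29, so they overlapped. ABCE1 overlapped too, at 9.94 to 10.39 against 9.84 and 10.16. ABCA1 was 1.72-fold higher in A2780s Ctrl, with 8.55 to 9.21 against 9.46 and 10.02. ABCC1 was 1.37-fold higher there, with 7.26 to 7.85 against 7.96 and 7.98. Neither ABCA1 nor ABCC1 overlapped, and both differed by less than 2-fold. For such levels, as for those of ABCC13, ABCG2 and ABCF3, no share of all probes was computed. ABCC1 entered through A2780s Ctrl alone, being well above background in SKOV3 Ctrl on 2 of 4 arrays. With the mean of all its probes, ABCA1 differed by -0.27 on the log2 scale, SKOV3 minus A2780s. After loess alone the difference of ABCC1 turned to 0.06 on the log2 scale and that of ABCE1 to -0.74.

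Different probes of a gene did not always give the same result. Of 8 genes with more than 1 probe tested in SKOV3, 4 (ABCB10, ABCC6, ABCD3 and ABCF2) had probes on different sides of an adjusted p of 0.05. The brightest ABCC6 probe (chr16:16315075-16315134) is annotated to another RefSeq transcript than the 2 dimmer ones (chr16:16243855-16243914 and chr16:16244568-16244627). The dimmer ABCC6 probes had SKOV3 means of 0.18 and 0.10 and differed by -0.07 and -0.06 between the Ctrl RNAs, against 0.62 and -1.60 for the brightest. ABCC6 also has pseudogene copies of near-identical sequence, so its values are uncertain.

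ABCF2 had probes annotated to different transcripts. The brightest, shown above, gave 0.42 in SKOV3 and a difference of -1.05 between the Ctrl RNAs, and the other (chr7:150910413-150910472) gave -0.03 (adjusted p = 0.859 by limma) and 0.30. For ABCD3 the dimmer probe passed with a mean of -0.41 (adjusted p = 0.0153) and the brightest did not. For ABCA5 both probes passed in SKOV3, with means of 0.58 and 0.41, and both were higher in A2780s Ctrl, with SKOV3 minus A2780s differences of -1.98 and -1.82 on the log2 scale. In A2780s, 2 of 14 genes with several probes, ABCA5 and ABCC5, had probes on different sides of the 1.5-fold rule.

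**Figure D5:**
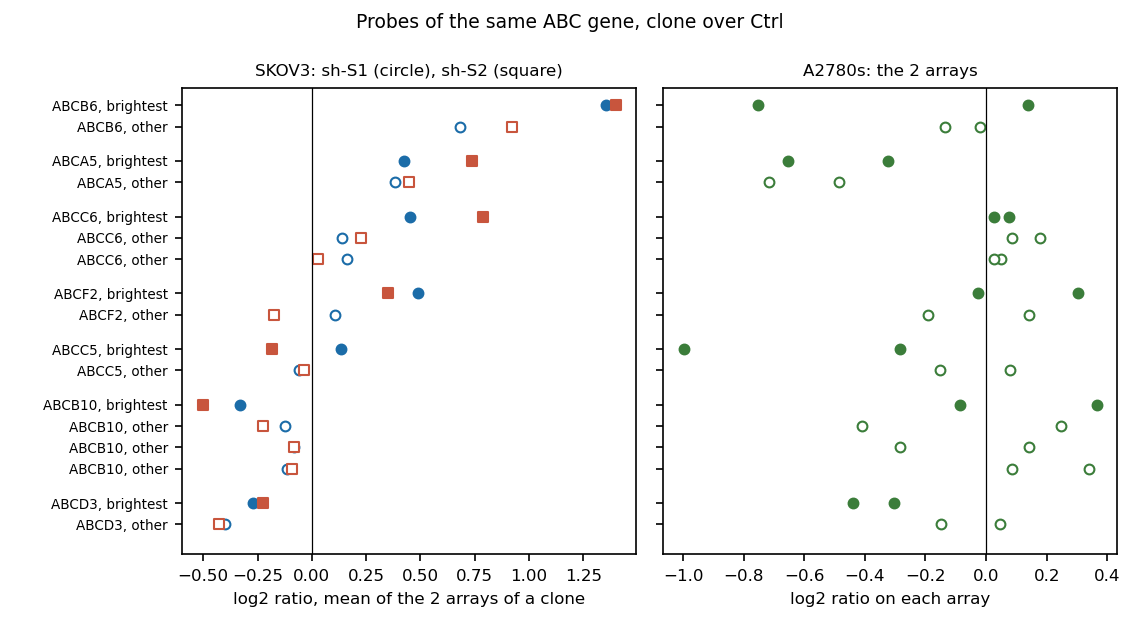
Log2 ratios (x axis) of the separate probes of 7 ABC genes in SKOV3 (left, circle sh-S1 and square sh-S2, each the mean of its arrays) and A2780s (right, 1 point per array), filled for the brightest probe and open for the others. The ABCB6 and ABCA5 probes lie on the same side of 0 in SKOV3, while ABCC6 and ABCF2 lie apart (0.62 against 0.18 and 0.10, and 0.42 against -0.03).

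Relatives under other symbols and partners of the same pathways were read from lists, and their calls stand beside 2.99% of all probes called higher and 4.16% lower in SKOV3, and 3.26% and 1.32% in A2780s. TAP1, which loads peptides for antigen presentation, was lower in the SKOV3 clones, at -1.25 ± 0.46 (SD, n = 2 clones, adjusted p = 0.00135 by limma), and its partner TAP2 had a mean of 0.06 (adjusted p = 0.676). Of 12 transcription factors tested that are known to act on ABC genes, 1 was called higher and 1 lower in SKOV3, and 0 of 12 with signal in A2780s. SREBF1, a regulator of lipid synthesis, was higher at 1.75 ± 0.22 (adjusted p = 7.24e-05), and AHR, the aryl hydrocarbon receptor, lower at -1.06 ± 0.30 (adjusted p = 0.00099 by limma). AHR entered through the Ctrl alone, where it was higher, and was well above background in the clones on 2 of 4 arrays. The LXR genes NR1H2 and NR1H3, the sterol receptors that act on ABCA1 and ABCG1, had means of -0.30 and -0.02, with adjusted p values of 0.0897 and 0.954.

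For platinum and drug handling outside the superfamily, 0 of 12 genes tested in SKOV3 were called higher and 2 lower, beside 2.99% and 4.16% of all probes. MVP, the major vault protein, was lower at -2.27 ± 0.45 (SD, n = 2 clones, adjusted p = 9.72e-05 by limma), and GCLM, a subunit of the enzyme that starts glutathione synthesis, at -1.07 ± 0.18 (adjusted p = 0.000472). In A2780s, GCLM was called higher in pCMV-Hic-5, with ratios of 1.67 and 1.83, and was the only one of 13. The copper and platinum transporters SLC31A1, ATP7A and ATP7B were called in neither line, and ATP7A passed the filter in A2780s alone.

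Of the cholesterol efflux partners, 8 were tested in SKOV3, with 1 called higher and 1 lower. APOE, an acceptor of exported cholesterol, was higher at 2.70 ± 0.25 (SD, n = 2 clones, adjusted p = 1.34e-05 by limma), and NCEH1, which frees cholesterol from its esters, lower at -2.38 ± 0.07 (adjusted p = 1.02e-05). The log2 levels of these genes also differed between the Ctrl RNAs, APOE by 3.33 in favour of A2780s and NCEH1 by 3.098 in favour of SKOV3. These differences share the SKOV3 Ctrl RNA with the ratios and were not tested. Of the 9 partners compared between the Ctrl RNAs, 3 were called higher in SKOV3 Ctrl and 2 in A2780s Ctrl. Over all probes these shares were 9.26% and 8.22%. SCARB1, the receptor for high-density lipoprotein, passed the adjusted p at 0.96 (0.000433), just short of 2-fold. MYLIP, which marks the LDL receptor for breakdown, was the partner called in A2780s, higher with ratios of 0.90 and 0.86. Of 7 peroxisome and iron-sulfur partners tested, 0 were called in SKOV3 or A2780s. Without the fold threshold, 4 of them passed limma's adjusted p in SKOV3, PEX19 at 0.93 and NFS1 at 0.69 higher, and PEX3 at -0.57 and ACSL1 at -0.36 lower. Under that rule 15.7% of all probes were higher and 16.3% lower. By limma 5 had an unadjusted p below 0.05, for which no share of all probes was computed.

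Markers of leukocytes, endothelium and fibroblasts gave 0 calls in either line, and by limma 1 leukocyte marker (CD68, -0.24) and 0 of the others had an unadjusted p below 0.05 in SKOV3. In SKOV3, 3 of 4, 0 of 3 and 3 of 3 of them passed the signal filter, and in A2780s 4, 2 and 3.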

How the data were processed

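RNA of 5 stable clones was measured on 6 two-colour Agilent arrays. The deposited files are scanner output with an intensity for each spot and dye, made by the authors with Agilent Feature Extraction (8.5.1.1 per the labels, 10.7.3.1 per the file headers), not normalized between arrays. The files also hold the log10 ratio of the deposited processed signals, used here as an alternative through the processed signals themselves. Samples were grouped by their labels.

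Mean signals and local backgrounds were corrected with normexp (offset 50, fitted without background-flagged spots; spots with a local background over 1000 dropped), normalized by loess within arrays, and by Aquantile for levels, with limma 3.58.1 in R 4.3.3. Control and outlier-flagged spots were left out and spots of a probe averaged. Each dye-swap pair was averaged and turned to clone over Ctrl. The SKOV3 clones were tested against 0 with limma (lmFit, eBayes; Benjamini-Hochberg over all 24770 probes passing the filter), called at an adjusted p of 0.05 and 2-fold. Replicates were clones, so p-values rest on the spread between them, which limma moderates for each probe with that of all probes tested. The A2780s and Ctrl comparisons have no test. Precision is limited by how few arrays there were. The code was tested on simulated data. Positions are those of the array design in hg19.

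Genes named were those called, the 5 furthest apart in each direction between the Ctrl RNAs, the first on either side of a threshold, and ABCB1, ABCC1, ABCG2, ABCA1, ABCG1 and ABCE1. ABCB10, ABCD3, ABCD4, ABCA3, ABCC4 and the remaining genes given with values were named after their values were seen. Values of some members are not reported here, in the text or the plots, though the counts and medians include them. Members and lists were chosen with earlier results of these data known. Alternatives covered background correction, normalization, the probe of a gene, the filter on dim probes, dye orientation, the variance model, thresholds and leaving out a clone.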

Additional observations from a re-analysis of the deposited data

Results flagged for a closer look

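ABCA3 had log2 ratios to Ctrl of -0.16 and -0.29 in sh-S1 and of 0.26 and 0.03 in sh-S2. Every array of sh-S1 was below 0 and every array of sh-S2 above it, and the clones differed by 0.37. The difference was not tested. It was the 1 such gene among the 26 members, beside 3.65% of all 24770 probes.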

How the results depend on the processing

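In SKOV3, 2 members were called in the main setting, 5 with Feature Extraction's processed signals and 7 with the adjusted p alone. Over all probes, 7.15% were called in the main setting and 17.4% with processed signals. With the adjusted p alone, 15.7% were higher and 16.3% lower. ABCC3 and ABCB6 were called in each of these and in the other settings with a test. Without sh-S1 or without sh-S2, where no test is left, both passed 2-fold in the same direction on both arrays. The A2780s count of 2 became 1 with normexp fitted on all spots (ABCC5) and 1 with the mean of all probes (ABCA7). It became 5 with the clone in Cy5 alone, 1 with it in Cy3 alone and 0 with 1.5-fold asked of each array. The share of all probes, 4.57%, became 3.14%, 3.75% (of genes), 10.8% and 4.04% in these settings in turn, and none was computed for the last. The 8 members apart between the Ctrl RNAs became 15 with processed signals, 5 with the mean of all probes and 15 with levels after loess alone. There the share of all probes, 17.5%, became 32.3%, 14.8% (of genes) and 39.5%. The 0 between the clones became 1 (ABCA3, 1.55) with processed signals, beside 3.04% of all probes. The SKOV3 median of 0.04 became 0.0073 with processed signals, 0.0295 with median centring, 0.0074 and 0.14 with the clone in Cy5 and Cy3 alone, and 0.0417 to 0.0573 when leaving out 1 clone. The A2780s median of 0.02 became -0.0179 with processed signals, 0.0317 with normexp on all spots, 0.0504 with median centring and 0.0367 with the clone in Cy3 alone. ABCF2 did not pass with the mean of its probes (0.19) or the clone in Cy5 alone (0.11). With 1 dye orientation, ABCG2 (-0.66, Cy3), ABCA1 (0.66, Cy3), ABCF3 (0.63, Cy5) and ABCE1 (-0.38, Cy5) passed the adjusted p. Beyond the construction of each alternative, the cause was not tested. The dim Cy5 signal in SKOV3 limits what could be compared there, and 20 members had no test. No paired analysis was possible because the replicate numbers mark the dye orientation of arrays of the same RNAs, which were averaged, and pair no separate samples between groups.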
